A study of Mus musculus with 8 samples.

Results

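The 41 genes described here act in mitosis and in the G2 phase that precedes it, and they are read as a measure of dividing cells in bone marrow B cells after removal of the ovaries. They were taken by symbol from a list of mitotic genes, and each of the 41 matched 1 of the 54532 Ensembl identifiers in the count table. RNA was sequenced from total bone marrow B cells of mice after ovariectomy (OVX) and of mice after a sham operation (Sham), with 3 libraries per group. The cells were sorted with magnetic beads. The labels of these libraries give no strain, age or time after surgery, and they do not say whether each library came from a separate mouse, so p-values measure the spread between libraries as deposited. Chromatin libraries for HIF-1α in the same series were not analysed here.

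Most B cells of the marrow do not divide. The dividing ones are mainly pro-B cells and large pre-B cells, which expand under IL-7 and signals of the pre-B cell receptor before they leave the cycle, become small pre-B cells and rearrange their light chain genes. Transcripts of the mitotic machinery rise in late S phase and G2 and are lost after division. In a mixed population their share of the RNA therefore rises with the share of cells in G2 and mitosis. Their promoters often carry a CCAAT box, bound by NF-Y, and downstream of it a cell cycle genes homology region (CHR). The CHR is bound by the MuvB complex, which represses these genes in resting cells as part of DREAM and activates them in cycling cells together with B-Myb and FOXM1.

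The promoter sequences are shown first, because they are a feature that the choice of genes did not use. RefSeq windows from 250 bases before to 50 bases after the gene start (GRCm38.p6) were matched for 35 of the 41 genes. Ccna2, Cdc25c, Aurkb, Foxm1, Kif20a and Tpx2 had no entry. In the stretches below, written 5′ to 3′ on the strand of the gene and ending before the start, capitals mark the CCAAT box letters (CCAAT or its reverse complement ATTGG) and the CHR letters (TTTGAA or TTCGAA, or the reverse complements TTCAAA and TTCGAA). The set shows the spaced pair in genes of the main kinase, the anaphase machinery, a spindle motor and the chromosomes. Ccnb1 is shown as a member with CCAAT boxes and no match to these CHR letters. Other forms of the CHR were not searched, so a promoter without a match is not shown to lack one.
Cdk1, chr10:69352913-69353012, minus strand: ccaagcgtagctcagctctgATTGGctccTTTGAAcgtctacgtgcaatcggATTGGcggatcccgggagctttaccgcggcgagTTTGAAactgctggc
Cdc20, chr4:118437344-118437443, minus strand: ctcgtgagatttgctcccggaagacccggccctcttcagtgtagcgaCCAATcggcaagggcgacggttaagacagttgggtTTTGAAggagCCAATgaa
Ube2c, chr2:164769829-164769928, plus strand: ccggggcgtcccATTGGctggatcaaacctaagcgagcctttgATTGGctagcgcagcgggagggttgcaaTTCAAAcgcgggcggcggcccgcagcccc
Kif11, chr19:37376282-37376381, plus strand: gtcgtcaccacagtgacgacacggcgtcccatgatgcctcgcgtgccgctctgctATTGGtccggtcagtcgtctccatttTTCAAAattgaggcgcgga
Top2a, chr11:99024200-99024289, minus strand: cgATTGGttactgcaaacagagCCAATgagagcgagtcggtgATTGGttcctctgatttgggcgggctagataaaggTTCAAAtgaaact
Mki67, chr7:135716460-135716579, minus strand: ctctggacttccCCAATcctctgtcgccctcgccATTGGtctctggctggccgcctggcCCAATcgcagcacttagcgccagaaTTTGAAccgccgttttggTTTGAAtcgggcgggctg
Ccnb1, chr13:100786507-100786606, minus strand: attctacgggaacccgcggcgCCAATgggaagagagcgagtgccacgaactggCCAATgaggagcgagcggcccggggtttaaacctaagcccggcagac

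In these stretches a CCAAT box began 33 bases before a CHR in Cdk1, 35 in Cdc20 and Top2a, 28 in Ube2c, 26 in Kif11 and 25 in Mki67. Over the whole window the CHR letters were found in 25 of the 35 promoters (71.4%), against 17.0% of the promoters of all genes tested here and 21.7% of all genes in the table. CCAAT letters were found in 24 of 35 (68.6%), against 42.8% and 41.1%. A CCAAT box that began 20 to 40 bases before a CHR, a distance set after the sequences were seen, was present in 13 of 35 (37.1%), against 1.08% of the genes tested. In 39 promoters of further mitotic genes, described below, the shares were 69.2% for CHR, 69.2% for CCAAT and 23.1% for the spaced pair. In 28 promoters of S phase genes they were 21.4%, 60.7% and 3.57%. In 11 promoters of the regulators of mitotic genes they were 36.4%, 72.7% and 0%. The mean GC content of the windows was 59.2% in the mitosis genes and 60.2% in the genes tested.

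The place of the letters also differed, counted in 1 window per gene because Prc1 and Ect2 had 2 overlapping windows. Of 35 CHR matches in the mitosis promoters, 25 (71.4%) began within 50 bases of the start, against 24.8% of the matches in all promoters. Of 57 CCAAT matches, 37 (64.9%) began in the 100 bases before the start, against 44.2%. The letters of the E2F site (TTTGGCGC, TTTCCCGC, TTTGCCGC or TTTCGCGC, both strands), which mark many genes of S phase, were found in 1 mitosis promoter, that of Cdk1 (2.86%), against 4.53% of the genes tested. These letters were in 9 of 28 promoters of S phase genes (32.1%) and in 5 of 39 promoters of the further mitotic genes (12.8%). The core of the hypoxia response element (ACGTG or GCGTG, both strands), the letters that HIF-1 binds, was in 24 of 35 (68.6%), against 65.8% of the genes tested, and the palindromic estrogen response element was in none of them, against 0.0189%. A match describes letters in a window and is not evidence of a bound site.

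**Figure D1:**
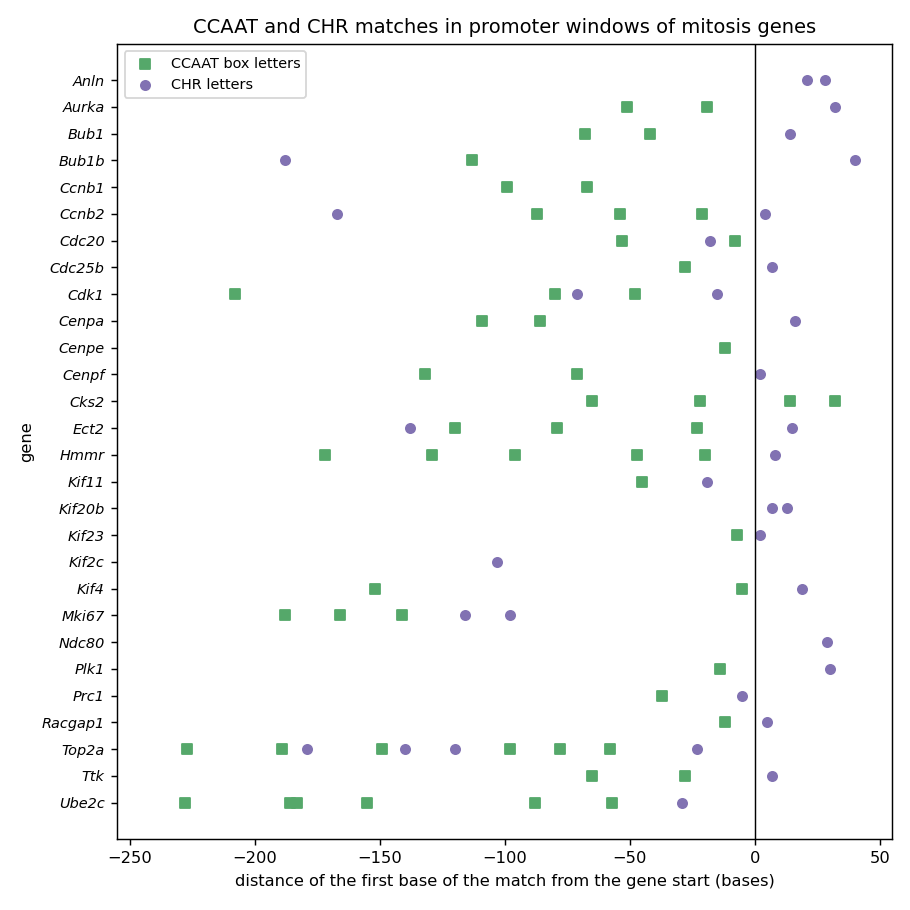
CCAAT box and CHR letters in the promoter windows of the mitosis genes that hold either. The x axis gives the distance of the first base of each match from the gene start in bases, with negative values before the start, and each row is a gene (Prc1 and Ect2 with the window of lower coordinate). Most CHR matches lie within 50 bases of the start and most CCAAT matches in the 100 bases before it.

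All 41 genes were well covered. The libraries held between 23838775 and 33136701 counted reads, and the mitosis genes had between 458 reads, for Cdc25c in Sham replicate 2, and 28171 reads, for Top2a in OVX replicate 3. All passed the filter on low counts, with 15305 genes tested. The general B cell genes Cd79a (1548 to 1883 CPM) and Pax5 (1195 to 1329 CPM) were high in every library, where CPM are counts scaled to 1 common library size with TMM factors. The mitosis genes together took between 0.521% and 0.790% of all counts.

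The joint level, the summed CPM of the 41 genes, was 7708, 5097 and 6795 in Sham and 7889, 7191 and 6716 in OVX, each in the order of replicates 1, 2 and 3, as for all values listed by library. Sham replicate 2 lay below the other 5 libraries, and the groups overlapped, since OVX replicate 3 lay below Sham replicates 1 and 3. The OVX mean was 7265 ± 590 CPM and the Sham mean 6534 ± 1325 CPM (SD, n = 3 each), a ratio of 1.11. The difference of 731 CPM was smaller than the SD of the Sham libraries. Without Sham replicate 2 the Sham mean was 7252 CPM and the ratio was 1.00. Fewer cells in division and less mitotic RNA per dividing cell cannot be told apart in bulk RNA.

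**Figure D2:**
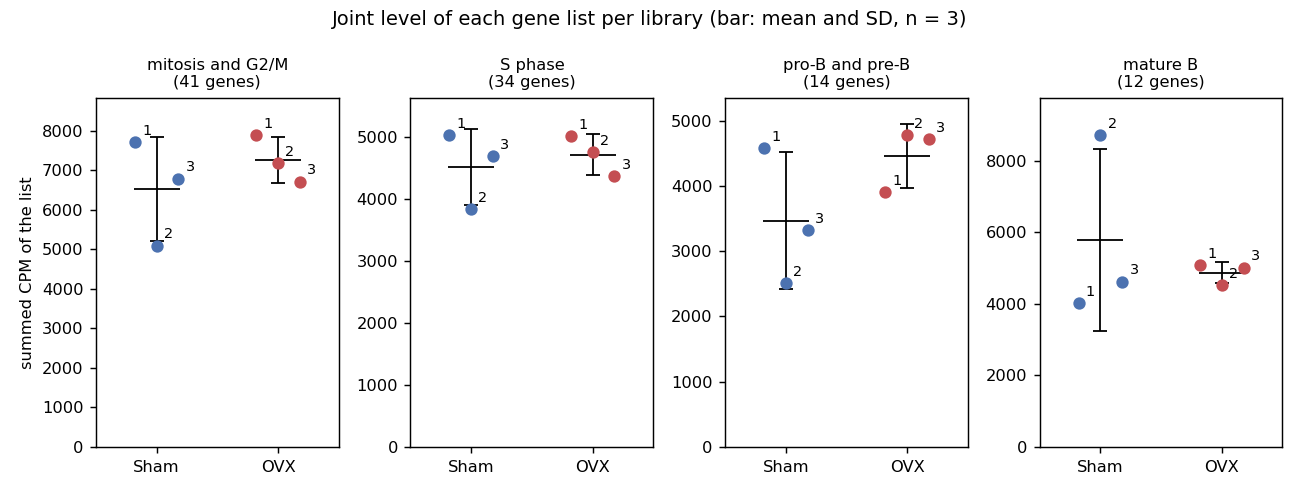
Summed CPM (y axis, from 0) per library for the mitosis and G2/M genes, the S phase genes and the markers of pro-B and pre-B cells and of mature B cells. Points are libraries with their replicate number, and bars are the mean and SD of 3 libraries. Sham replicate 2 is the lowest library for the first 3 lists (5097 CPM for the mitosis genes) and the highest for mature B cells.

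No mitosis gene was called between OVX and Sham. In edgeR's quasi-likelihood test the adjusted p-values of the 41 genes ran from 0.811 to 0.906, and 0 of 15305 genes (0%) were called at an adjusted p-value under 0.05. None of the 41 had an unadjusted p-value under 0.05 in either direction, where 1.47% of all genes tested were higher and 2.28% lower at that limit. In none of the 41 did every OVX library lie above every Sham library, which held for 4.33% of the genes tested, and in none did every OVX library lie below, which held for 4.12%. All 41 genes had a log2 fold change above 0, against 48.2% of all genes tested, with a median of 0.15 (all genes -0.0081) and a range from 0.072 to 0.29. The 95% interval of each of the 41 fold changes included 0 on the log2 scale. The outermost bounds were 0.818-fold and 1.56-fold, so changes beyond these sizes lay outside the intervals of the 41 genes.

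The shared sign rested on 1 library. Without Sham replicate 2 the log2 fold change was above 0 for 18 of the 41 genes and below 0 for 23, and its median was -0.0093. Without Sham replicate 1 the median was 0.30, and 17 of the 41 were higher at an unadjusted p-value under 0.05, where 7.81% of all genes were higher at that limit. In that fit all OVX libraries lay above both remaining Sham libraries for 23 of the 41 (19.4% of all genes), and without OVX replicate 3 the OVX libraries lay above Sham for 7 (8.36% of all genes). That order held for 0 of the 41 without Sham replicate 2 (7.91% of all genes) or Sham replicate 3 (7.55%). It also held for 0 without OVX replicate 1 (11.8%) or OVX replicate 2 (6.6%). None of the 41 was called without Sham replicate 1 (lowest adjusted p = 0.273, edgeR's quasi-likelihood test). Without any of the other 4 libraries at least 40 of the 41 genes had a log2 fold change above 0.

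**Figure D3:**
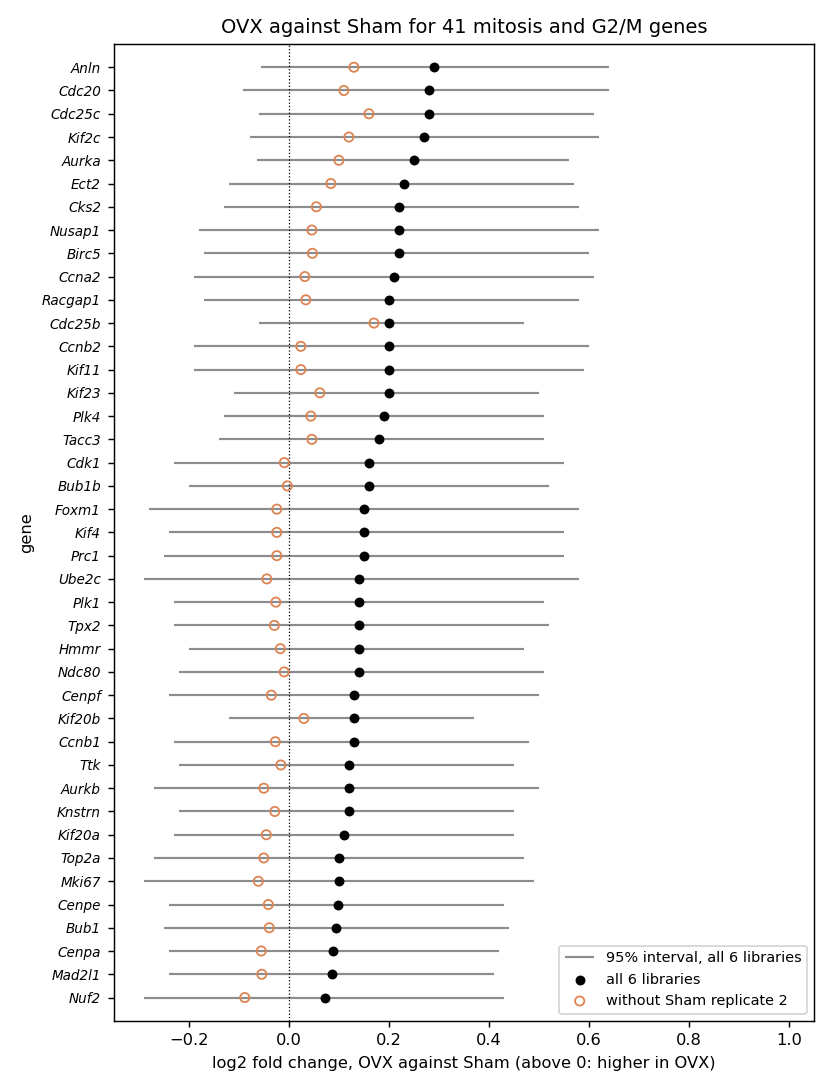
Log2 fold change of OVX against Sham (x axis, above 0 higher in OVX) for each of the 41 genes. Filled points and lines are the estimate and 95% interval from edgeR with all 6 libraries, and open circles are the estimate without Sham replicate 2. All filled points lie above 0 (0.072 to 0.29) with intervals that cross 0, and the open circles lie on both sides of it.

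Across libraries the genes moved together. Sham replicate 2 was the lowest of the 6 libraries for 40 of the 41 genes, against 28.8% of all genes tested. Its level was between 0.647 and 0.873 of the mean of the other 5 libraries, with a median of 0.692 (all genes 0.988), and 8.08% of the genes tested were at or below 0.692. The highest library was Sham replicate 1 for 17 genes, OVX replicate 1 for 23 and OVX replicate 2 for 1. For 33 of the 41 genes the 2 highest libraries were Sham replicate 1 and OVX replicate 1, 1 of each group, against 5.30% of all genes tested. The SD was larger in Sham than in OVX for 40 of 41, against 67.9%. Cdc25b was the gene lowest in Sham replicate 3, and Aurka the gene highest in OVX replicate 2.

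**Figure D4:**
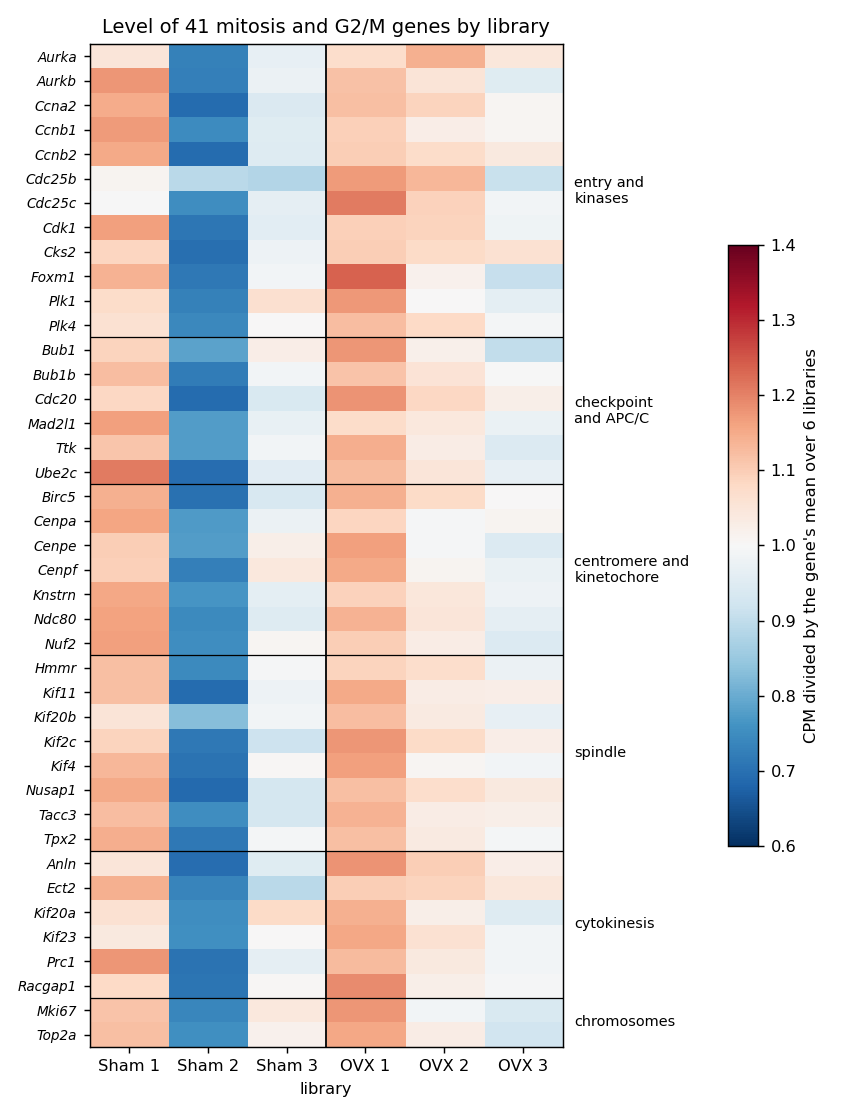
CPM of each of the 41 genes divided by its mean over the 6 libraries (colour), in rows by role, with Sham libraries left and OVX libraries right of the line. APC/C is the anaphase promoting complex. Sham replicate 2 is the lowest column for 40 of 41 genes, and Sham replicate 1 and OVX replicate 1 are the highest in most rows.

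Among the 2 chromosome proteins, Mki67 (ENSMUSG00000031004) encodes Ki-67, which coats mitotic chromosomes and is the usual marker of cycling cells. Its level was 929, 616 and 868 CPM in Sham and 981, 826 and 783 CPM in OVX. The Sham libraries thus spanned the lowest value and nearly the highest, with a log2 fold change of 0.10 (standard error 0.17, 95% interval -0.29 to 0.49). Top2a (ENSMUSG00000020914) encodes topoisomerase II alpha, which untangles sister chromatids. It was measured at 1036, 698 and 941 CPM in Sham and at 1066, 952 and 853 CPM in OVX, with a log2 fold change of 0.10 (standard error 0.16). Both genes had OVX replicate 3 as the lowest of the OVX libraries.

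The 12 genes of mitotic entry and its kinases had a median log2 fold change of 0.20 and none at an unadjusted p-value under 0.05. Cdk1 (ENSMUSG00000019942), the kinase that drives entry, was at 153, 93.5 and 126 CPM in Sham and 144, 143 and 129 in OVX. Its highest and lowest values were both Sham libraries (log2 fold change 0.16, 95% interval -0.23 to 0.55). Ccnb1 (ENSMUSG00000041431), the cyclin B1 partner of Cdk1, had the same order of Sham libraries, with 186, 119 and 151 CPM, and 174, 163 and 160 in OVX. Its log2 fold change was 0.13 (standard error 0.15). Ccnb1-ps, a copy listed as a pseudogene, held 6 to 18 reads per library, and Ccnb2-ps held 140 to 243, so reads shared between Ccnb1 or Ccnb2 and these copies are uncertain. The other cyclins, Ccnb2 and Ccna2, had log2 fold changes of 0.20 and 0.21.

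The CDC25 phosphatases remove the inhibitory phosphates from Cdk1. Cdc25c (ENSMUSG00000044201) was at 21.4, 16.1 and 20.7 CPM in Sham and at 25.9, 23.4 and 21.2 in OVX. Its OVX libraries lay above the Sham libraries except for OVX replicate 3, which was below Sham replicate 1 (log2 fold change 0.28, standard error 0.14, unadjusted p = 0.0933 and adjusted p = 0.811, edgeR's quasi-likelihood test). Cdc25b (ENSMUSG00000027330) did not have its minimum in Sham replicate 2, with 339, 300 and 297 CPM in Sham and 393, 380 and 306 in OVX. Its log2 fold change of 0.20 (standard error 0.11) was 0.17 without Sham replicate 2, the highest of the 41 in that fit, with an unadjusted p of 0.212 from the same test.

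Foxm1 (ENSMUSG00000001517), the transcription factor that activates many of the other members in G2, was at 177, 111 and 154 CPM in Sham and at 192, 158 and 141 in OVX. OVX replicate 1 was its highest library and OVX replicate 3 lay below Sham replicates 1 and 3 (log2 fold change 0.15, standard error 0.18). Plk1 (ENSMUSG00000030867), a kinase of spindle assembly and mitotic entry, had 106, 72 and 105 CPM in Sham and 116, 99.0 and 94.9 in OVX, so that Sham replicates 1 and 3 lay above OVX replicates 2 and 3. Its log2 fold change was 0.14 (standard error 0.16). Aurka (ENSMUSG00000027496), the centrosome kinase, had 65.0, 45.3 and 60.0 CPM in Sham and 66.4, 70.8 and 64.8 in OVX. OVX replicate 3 lay just below Sham replicate 1, and the other OVX libraries above it (log2 fold change 0.25, standard error 0.13, and 0.10 without Sham replicate 2). Aurkb, Plk4 and Cks2, the last a small subunit of the Cdk1 complex, had log2 fold changes of 0.12, 0.19 and 0.22.

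The 6 genes of the spindle checkpoint and of the anaphase promoting complex had a median log2 fold change of 0.13. Cdc20 (ENSMUSG00000006398), the activator of that complex, was at 184, 118 and 160 CPM in Sham and 201, 184 and 174 in OVX (log2 fold change 0.28, standard error 0.16, and 0.11 without Sham replicate 2). Its OVX libraries lay around Sham replicate 1 and above the other Sham libraries. Ube2c, the ubiquitin-conjugating enzyme that works with it, had the widest spread of the 41 genes, with a ratio of 1.74 between Sham replicate 1 (182 CPM) and Sham replicate 2 (105 CPM). Mad2l1 (ENSMUSG00000029910), the checkpoint protein that holds Cdc20, had one of the lowest fold changes, 0.087, with 114, 75.9 and 94.9 CPM in Sham and 105, 102 and 95.3 in OVX. The checkpoint kinases Bub1 and Ttk and the related Bub1b had 0.094, 0.12 and 0.16.

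The 7 centromere and kinetochore genes had the smallest median after the chromosome genes, 0.12. Nuf2 (ENSMUSG00000026683), a subunit of the NDC80 complex that grips microtubules, had the lowest fold change of the 41 genes, 0.072 (standard error 0.15). Its level was 93.8, 60.5 and 81.2 CPM in Sham and 88.3, 83.0 and 76.2 in OVX, and it was -0.088 without Sham replicate 2. Ndc80, of the same complex, had 0.14. Cenpa, the centromeric histone, Cenpe, a kinetochore motor, and Cenpf had 0.088, 0.098 and 0.13, and Birc5, which encodes survivin of the chromosomal passenger complex, had 0.22. Knstrn, a spindle and kinetochore protein, had 0.12.

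The 8 spindle genes had a median of 0.17. Kif2c (ENSMUSG00000028678), a kinesin that takes microtubules apart at the centromere, was at 71.0, 46.5 and 59.8 CPM in Sham and at 76.8, 70.1 and 67.0 in OVX, with OVX replicate 1 the highest library (log2 fold change 0.27, standard error 0.15, and 0.12 without Sham replicate 2). Kif11, the motor that separates the poles, and Nusap1, which bundles spindle microtubules, had 0.20 and 0.22. Kif20b was among the least variable members, with a ratio of 1.36 between its highest and lowest library and a log2 fold change of 0.13. Tacc3, Kif4, Hmmr and Tpx2 had 0.18, 0.15, 0.14 and 0.14.

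The 6 genes of the midzone and of cytokinesis had a median of 0.20. Anln (ENSMUSG00000036777), which encodes anillin of the contractile ring, had the highest fold change of the 41 genes and their lowest p-value (log2 fold change 0.29, standard error 0.15, unadjusted p = 0.0880 and adjusted p = 0.811, edgeR's quasi-likelihood test). It was at 72, 47.6 and 65.3 CPM in Sham and at 81, 75.3 and 70.4 in OVX, with OVX replicate 3 below Sham replicate 1 (two-sided exact permutation p = 0.2, the smallest possible with 3 libraries each being 0.1). Without Sham replicate 2 its log2 fold change was 0.13. Ect2, the exchange factor that starts the cleavage furrow, and Racgap1 and Kif23, which together form centralspindlin, had 0.23, 0.20 and 0.20. Prc1, which bundles midzone microtubules, and the motor Kif20a had 0.15 and 0.11.

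Fold changes were alike in members with and without the promoter letters. The median log2 fold change was 0.15 in the 25 members with CHR letters and 0.15 in the 10 without, and 0.15 in the 24 with CCAAT letters and 0.18 in the 11 without. These are descriptions of small groups that share libraries, with no test.

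The other genes of the cell cycle followed in part. Of 51 further mitotic genes, 45 had a log2 fold change above 0, with a median of 0.14 and none at an unadjusted p-value under 0.05, and Sham replicate 2 was the lowest library for 47. Of 34 genes of S phase and DNA replication, 25 had a value above 0, with a median of 0.021, none at an unadjusted p-value under 0.05, and 28 were lowest in Sham replicate 2. The summed level of the S phase genes in Sham replicate 2 was 0.805 of the mean of the other libraries, where it was 0.702 for the mitosis genes and 0.721 for the further mitotic genes. The ratio of the mitosis genes to the S phase genes was 1.53, 1.33 and 1.45 in Sham and 1.57, 1.51 and 1.54 in OVX. The ratio to the further mitotic genes was nearly constant, from 1.29 in Sham replicate 2 to 1.33.

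Of the 17 tested genes of G1 cyclins, their kinases and inhibitors, 8 had a log2 fold change above 0 and 9 below, with a median of -0.0020, none at an unadjusted p-value under 0.05, and 8 were lowest in Sham replicate 2. Of 14 regulators of mitotic genes, which are subunits of MuvB, DREAM and NF-Y and the atypical E2F repressors E2f7 and E2f8, 12 had a value above 0, with a median of 0.12. Of these, 1 was higher at an unadjusted p-value under 0.05, where 1.47% of all genes tested were higher. Nfyc (ENSMUSG00000032897), a subunit of the NF-Y factor that binds CCAAT boxes, was at 68.6, 65.8 and 65.9 CPM in Sham and at 70.9, 78.6 and 75 in OVX. All 3 OVX values were above the highest Sham value (log2 fold change 0.16, standard error 0.066, unadjusted p = 0.0402 and adjusted p = 0.811, edgeR's quasi-likelihood test). Such an order held for 4.33% of the genes tested. In the same test without OVX replicate 2 its unadjusted p was 0.16.

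Marker RNA of B cell stages also differed between these libraries, and cell numbers and RNA per cell cannot be told apart here either. The 12 mature B cell markers summed to 4019, 8705 and 4621 CPM in Sham and to 5069, 4530 and 5010 in OVX, and 11 of the 12 were highest in Sham replicate 2. Fcer2a (CD23), found on mature follicular cells, was at 433 CPM there and between 131 and 200 CPM in the other libraries. The 14 markers of pro-B and pre-B cells summed to 4582, 2507 and 3319 CPM in Sham and to 3903, 4778 and 4717 in OVX, and 8 of the 14 were lowest in Sham replicate 2. The other 6 were lowest in Sham replicate 3, and 1 of the 14 was highest in Sham replicate 2. Rag1, the recombinase of pro-B and small pre-B cells, was at 581 CPM in Sham replicate 2 and between 975 and 1516 CPM elsewhere. The library lowest in mitosis genes was thus also lowest in the sum of precursor markers and highest in the sum of mature markers.

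Outside Sham replicate 2 the mitosis genes and the precursor markers did not keep 1 ratio. The summed mitosis genes divided by the summed precursor markers gave 1.68, 2.03 and 2.05 in Sham and 2.02, 1.5 and 1.42 in OVX. The OVX mean of this ratio was 1.65 ± 0.324 and the Sham mean 1.92 ± 0.207 (SD, n = 3 each), with overlap. OVX replicates 2 and 3 had the most precursor RNA of the 6 libraries, with 4778 and 4717 CPM, and mitosis levels of 7191 and 6716 CPM, the latter above only Sham replicate 2. OVX replicate 1 and Sham replicate 3 had less precursor RNA and a higher ratio. Divided by the general B cell genes, the mitosis level had an OVX mean of 0.898 ± 0.133 and a Sham mean of 0.841 ± 0.178 (SD, n = 3 each), again with overlap.

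Transcripts of other cells, some of which also divide in marrow, varied among libraries. The 6 markers of granulocyte precursors, Mpo and Elane among them, summed to 139, 253 and 682 CPM in Sham and 249, 51.2 and 51.0 in OVX, highest in Sham replicate 3. The 12 erythroid markers summed to 151 to 491 CPM, and 5 of them were highest in Sham replicate 2 and 7 in Sham replicate 3. All of these markers had reads in every library, none being at 0, and each of the 10 neutrophil markers was lower in OVX by its estimate, with sums from 1077 to 8754 CPM. The 7 plasma cell markers summed to 665 to 1171 CPM, the 10 monocyte and macrophage markers to 556 to 1869 CPM and highest in Sham replicate 2, and the 9 T and NK cell markers to 35.4 ± 13.2 CPM in Sham and 25.5 ± 12.2 in OVX. When the neutrophil share entered the fit as a covariate, the median log2 fold change of the mitosis genes was 0.19, and the part of the other cell types in the result was not tested.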

How the data were processed

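The table that the authors deposited holds whole-number counts for each Ensembl gene, not normalized, in 1 column for each of the 6 RNA-seq libraries. The submitters' processing notes name CASAVA, Bowtie 0.12.2 and the build mm10. The counting tool and annotation are not given in the sources used here. Libraries were prepared with a TruSeq kit after Trizol extraction according to the labels, and the paper's methods name other RNA reagents. Without molecular identifiers, reads are not independent molecules.

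Symbols were matched to 54409 of 54532 identifiers. In R 4.3.3, edgeR 4.0.16 kept genes by filterByExpr by group (15305), scaled libraries by TMM and compared OVX with Sham by the quasi-likelihood test, with Benjamini-Hochberg adjustment over the genes tested and a call at an adjusted p under 0.05. The standard error is the size of the log2 fold change divided by the root of F. Promoter windows and coordinates are from RefSeq (GRCm38.p6). Alternatives were DESeq2 1.42.0, limma 3.58.1 with voom, other scalings and filters, a replicate block, a neutrophil covariate and leaving out each library. The members, lists and rules were chosen with earlier results of these data known. The 14 members given with CPM for each library and a log2 fold change are Mki67, Top2a, Cdk1, Ccnb1, Foxm1 and Plk1, the 6 with the lowest p, and the 2 highest and 2 lowest fold changes. Some single marker genes are not reported here.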

Additional observations from a re-analysis of the deposited data

How the results depend on the processing

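In each of the 15 alternative fits no gene passed an adjusted p-value of 0.05, mitosis genes included (lowest 0.273, in edgeR with Sham replicate 1 left out). Of the 41 genes, 41 had a log2 fold change above 0 with all 6 libraries, and 18 to 41 when 1 library was left out, the lowest without Sham replicate 2. Their median was 0.15, from -0.0093 without Sham replicate 2 to 0.30 without Sham replicate 1. With the general B cell genes for scaling, which moved the median of all genes to -0.086, 40 were above 0 and the median was 0.078. The number of mitosis genes higher at an unadjusted p-value under 0.05 was 0, and 0 to 17 in the fits on 5 libraries (17 without Sham replicate 1, 1 without OVX replicate 3), and it was 1 with no filter on low counts. The log2 joint level differed by 0.17, by 0.0023 without Sham replicate 2.

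When 1 library was left out, the log2 fold changes ran from the value without Sham replicate 2 to that without Sham replicate 1, from -0.027 to 0.29 for Ccnb1, -0.009 to 0.34 for Cdk1, -0.024 to 0.30 for Foxm1, -0.054 to 0.23 for Mad2l1, -0.061 to 0.22 for Mki67, -0.088 to 0.22 for Nuf2, -0.026 to 0.23 for Plk1 and -0.050 to 0.22 for Top2a, and with the general B cell genes it was -0.0037 for Nuf2. The other 201 of 210 values of the 14 named genes kept their direction. Over all genes 574 had an unadjusted p-value under 0.05, against 188 with the neutrophil covariate, 1269 with no filter on low counts, 206 with the replicate block, and 233 without OVX replicate 2 to 2698 without Sham replicate 1. The causes were not tested. The split was 225 higher and 349 lower with TMM, and 54 and 530 with scaling on the general B cell genes. The labels do not say whether libraries with the same replicate number are paired. Across genes, same-numbered libraries deviated from their groups with correlations of -0.410, -0.189 and -0.279, and with the replicate block the median of the mitosis genes was 0.18.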

Other observations

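Among the marker lists, the genes reported here at an unadjusted p-value under 0.05 in edgeR's quasi-likelihood test, none of them called, were as follows. Higher in OVX was Ebf1, of the general B cell list, with a log2 fold change of 0.35 (standard error 0.12). Lower in OVX were Prdm1 (-0.93) and Tnfrsf17 (-1.33) of plasma cells and Cd8a (-1.67) and Nkg7 (-1.55) of T and NK cells. Also lower were 3 of 12 erythroid markers, Klf1 (-1.68) and Car1 (-1.49) among them. Over all genes tested, 1.47% were higher and 2.28% lower at that limit. Of the 7 plasma cell markers, 3 had a log2 fold change above 0 and 4 below, with a median of -0.19. All 12 erythroid markers and 8 of the 9 T and NK cell markers were below 0. Of the 8 general B cell markers, 6 were above 0 and 2 below. Ebf1 was at 452 CPM in Sham and 578 CPM in OVX on average, with all 3 OVX values above the highest Sham value. That order held for 4.33% of the genes tested.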
